A study of Mus musculus with 22 samples.

Results

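Long intergenic noncoding RNAs (lincRNAs) expressed in myeloid precursors of mice with and without Arid1a are described here. They were chosen by annotation and by level: genes that GENCODE vM21 gives the biotype lincRNA, on an autosome, other than the imprinted Meg3, Rian, Mirg and H19, whose TPM summed over transcripts averaged at least 1 over 18 libraries of CMP, GMP and MEP cells. TPM counts transcripts relative to all RNA of a library and is already divided by transcript length. Of 2900 such autosomal lincRNAs, 297 passed, and 1899 had any count. The highest members below the limit were Gm20005 (0.9994 TPM), Gm43154 (0.9963 TPM) and Gm10522 (0.9933 TPM). The lowest members above it were 4931413I07Rik (1.0031 TPM), Gm28872 (1.0117 TPM) and Gm26798 (1.0146 TPM).

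The mice carried the floxed allele Arid1a f/f on a C57BL/6 background, and all of them, KO and WT, were given 5 doses of 300 µg poly(I:C) at 8 to 14 weeks of age. KO mice also carried Mx1-Cre, a recombinase driven by an interferon-inducible promoter that is active in blood cells and in other tissues, which deletes exon 9. WT mice were littermates without Cre. Cells were sorted from bone marrow 4 weeks later. WT mice 300, 305 and 309 and KO mice 301, 304 and 308 each gave CMPs (common myeloid progenitors), GMPs (granulocyte-macrophage progenitors) and MEPs (megakaryocyte-erythroid progenitors). LT-HSCs (long-term hematopoietic stem cells) came from WT mice S245 and S269 and KO mice S244 and S270, with another library kit, and played no part in choosing the members. Per-library values below follow that order of mice, WT before KO.

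A lincRNA is transcribed and usually spliced and polyadenylated like an mRNA but has no known protein product and lies apart from protein-coding genes. Some act in the nucleus, as Malat1 and Neat1 do in nuclear bodies, some are hosts from whose introns or exons small nucleolar RNAs (snoRNAs) or microRNAs are cut, and some act on a neighboring gene in cis, but for most no role is known. ARID1A is a subunit of the BAF form of the SWI/SNF complex, which moves nucleosomes and opens enhancers and promoters, and enhancers and promoters are also where many lincRNAs start.

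The libraries held between 40804031 and 65930737 estimated counts on genes. The 297 lincRNAs took 0.207% to 0.377% of the counts in each precursor library and 0.493% to 1.037% in each LT-HSC library. WT LT-HSC mouse S245 stood apart, with 275 of the 297 at 1 TPM or more against 229 to 242 in the other LT-HSC libraries. Summed marker levels set the labelled precursors apart. In WT cells, 10 erythroid markers summed to 7997 to 8879 TPM in MEPs and 70.1 to 161.5 TPM in GMPs, 10 neutrophil markers to 30140 to 35530 TPM in GMPs and 53.8 to 160.9 TPM in MEPs, and 7 stem cell markers to 495.9 to 628.5 TPM in LT-HSCs and at most 72.3 TPM in a precursor library. The erythroid markers also summed to 6623 to 7140 TPM in WT and 6255 to 6676 TPM in KO LT-HSCs. Arid1a, summed over all its exons although exon 9 alone is deleted, had 77.5 to 84.1 TPM in WT and 70.8 to 80.4 TPM in KO CMPs, 57.7 to 78.3 TPM in WT and 42.9 to 46.5 TPM in KO GMPs, 51.5 to 53.4 TPM in WT and 45.7 to 52.0 TPM in KO MEPs, and 23.7 and 29.9 TPM in WT against 10.7 and 10.9 TPM in KO LT-HSCs. WT and KO overlapped in CMP and MEP, where the sum over the gene does not check the labels. Its fall passed the test in CMPs (log2 fold change -0.22, SE 0.06, adjusted p = 0.028), GMPs (-0.40, SE 0.11, adjusted p = 0.025) and MEPs (-0.14, SE 0.05, adjusted p = 0.084). The larger fall in LT-HSCs did not pass (-1.14, SE 0.27, adjusted p = 0.42).

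Most of the lincRNAs were low and short. Their mean TPM had a median of 2.88, against 24 for the 10931 autosomal protein-coding genes that pass the same limit. There were 111 lincRNAs under 2 TPM and 60 at 10 TPM or more. The 10 highest held 41.1% of the summed TPM. They were Gm42428, Mir142hg, Snhg12, Snhg6, Gm29562, Gm42418, Gm26809, Gm43549, Epb41l4aos and 4930519L02Rik. The median lincRNA had 1380 exonic bases, 2 exons and 92 estimated counts per precursor library, and 53 had a median under 20. At least 1 TPM as a group mean in each of the 6 groups was reached by 167 of them.

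Position bears on what was measured. An exon of 99 of the 297 overlapped an exon of another gene, in 80 cases on the opposite strand. Whether the libraries or the counting kept strand is not given in the sources used here, so reads of opposite genes at such places cannot be told apart. The nearest protein-coding gene overlapped the gene body of 64 lincRNAs and lay within 5 kb of another 105. The start of 39 lay within 1 kb of the start of a neighbor transcribed away from it. For 49 the nearest protein-coding gene was beyond 50 kb.

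AI427809 fell the furthest of the lincRNAs that dropped in all 3 KO precursor populations. It lies on chromosome 4 (53261356 to 53270232, minus strand, GRCm38) with no exon overlapping another gene. No role is given for it here. The first exon of AI427809-203 (chr4:53270079-53270232) is shown because this gene had the lowest log2 fold change of the lincRNAs tested in each precursor population. The capitals mark the first 30 bases of exon 2, across the splice junction, which tells the spliced RNA from genomic DNA.

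AI427809-203: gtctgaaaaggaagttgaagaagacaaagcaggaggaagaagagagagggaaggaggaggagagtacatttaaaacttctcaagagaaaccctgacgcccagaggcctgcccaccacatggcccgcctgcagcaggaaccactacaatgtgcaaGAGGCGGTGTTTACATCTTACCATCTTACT

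In CMPs AI427809 had 4.19, 3.25 and 3.63 TPM in WT and 0.199, 0.085 and 0.746 TPM in KO mice (log2 fold change -4.11, SE 0.30, adjusted p = 7.3e-05). In GMPs it had 0.817, 0.492 and 0.847 TPM in WT and 0, 0 and 0.058 TPM in KO mice (log2 fold change -5.10, SE 0.78, adjusted p = 0.0013). In MEPs, the highest WT population, AI427809 had 9.87, 9.31 and 7.21 TPM in WT and 0.215, 0.409 and 0.211 TPM in KO mice (log2 fold change -5.59, SE 0.23, adjusted p = 1.1e-05). No KO library reached the lowest WT library of its population. The GMP change rests on 88 counts over the WT and 2 over the KO libraries, a KO level of 2.27% of WT (95% exact interval 0.271% to 8.46%, counting error only).

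In LT-HSCs AI427809 had 4.47 and 5.18 TPM in WT and 0.01 and 0.133 TPM in KO mice. The counts were 399 and 3, which put KO at 0.584% of WT (interval 0.12% to 1.72%). The groups stood apart there too, but the change did not pass the test (log2 fold change -7.08, SE 1.40, adjusted p = 0.23). DESeq2, a fit without the filter on low counts and a fit with paired columns each called it. Fits with other size factors or with a length offset did not. With a library left out, its log2 fold change ran from -7.80 to -6.51.

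The nearest protein-coding gene, Abca1, a cholesterol exporter, lies 101461 bases away on the same strand, with AI427809 upstream of it. It fell in GMPs (log2 fold change -1.32, SE 0.27, adjusted p = 0.0061), from 0.856, 0.893 and 0.73 TPM to 0.306, 0.164 and 0.324 TPM. In CMPs its log2 fold change was 0.07 and in MEPs -0.07, and neither passed.

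**Figure D1:**
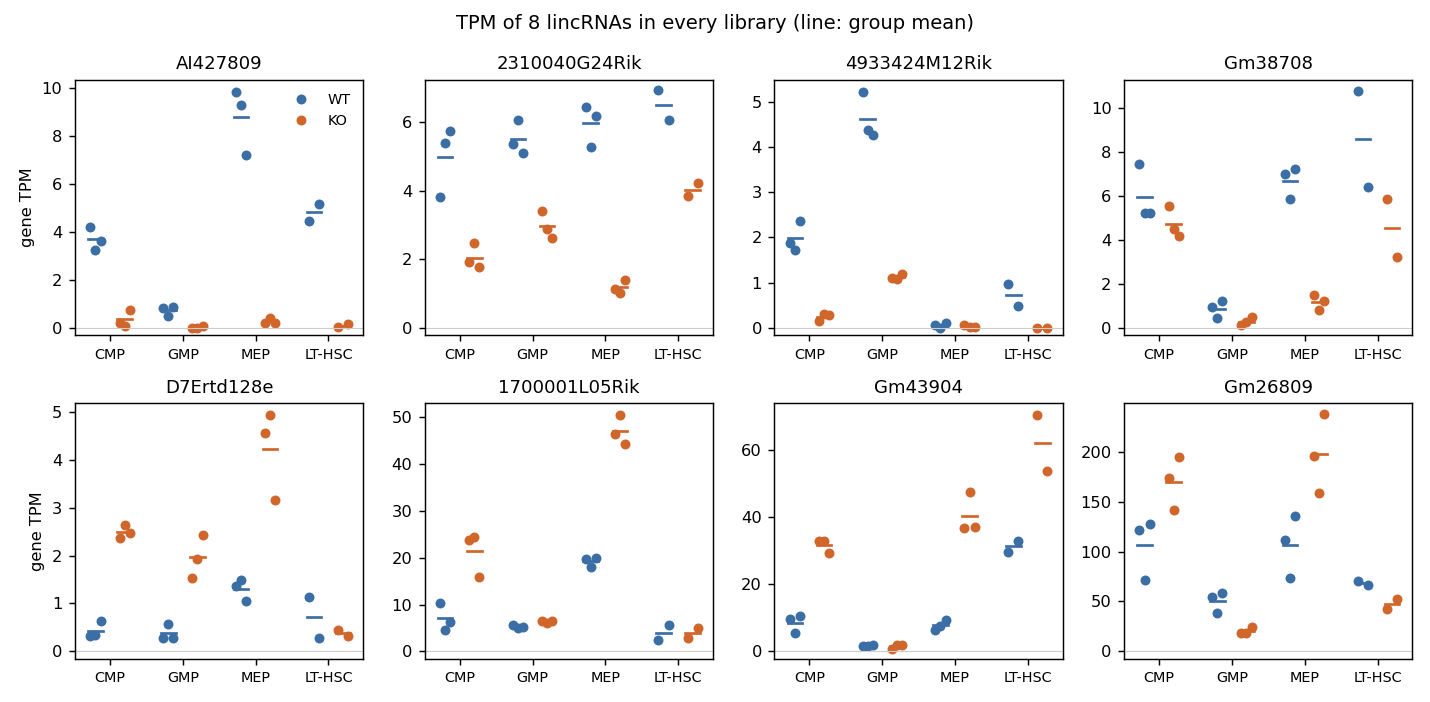
Gene TPM (y axis, linear) of 8 lincRNAs in every CMP, GMP, MEP and LT-HSC library, with WT in blue, KO in orange and a line at each group mean. AI427809 lies at 7.21 to 9.87 TPM in WT MEPs and at 0.211 to 0.409 TPM in KO MEPs, while Gm26809 is higher in KO CMPs and MEPs and lower in KO GMPs.

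At an adjusted p under 0.1, 104 of the 297 lincRNAs differed between KO and WT mice in at least 1 precursor population. The other 193 were called in none, and they include lincRNAs that were not tested in every population. The share of all genes called in at least 1 population is not given here, so the 104 are not set against a background. In CMPs 20 fell and 25 rose of 283 tested (7.07% and 8.83%), where 12.8% of all tested genes fell and 10.6% rose. In GMPs 44 fell and 16 rose of 276 (15.94% and 5.80%), where 16.3% of all genes fell and 17.5% rose. In MEPs 20 fell and 25 rose of 259 (7.72% and 9.65%), where 15.4% fell and 14% rose. The share that fell in GMPs was close to that of all genes, and the other shares of lincRNAs were below theirs. The median log2 fold change of the lincRNAs was 0.051 in CMPs, -0.13 in GMPs and 0.005 in MEPs, against -0.003, -0.006 and -0.002 for all genes tested. A lincRNA that passed the filter on low counts only through the group in which it is high is more likely to differ between groups. The counts cover tested lincRNAs only and include such members, whose calls are in part set by the filter. AI427809 is an example in GMPs, with 44, 17 and 27 counts in WT and 0, 0 and 2 in KO. So is 1700063H04Rik in CMPs, with 5, 3 and 6 counts in WT and 49, 59 and 25 in KO. How many called lincRNAs passed this way was not counted. The number called was 25 in CMPs without KO mouse 301, 39 in GMPs without WT mouse 309, and in MEPs 26 without KO mouse 301 and 29 without WT mouse 300.

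Among protein-coding genes that met the same TPM limit, 15.05% fell and 12.36% rose in CMPs, 17.4% and 23.0% in GMPs and 19.49% and 16.8% in MEPs. The median SE of a lincRNA's log2 fold change was 0.224, 0.247 and 0.223 in the 3 populations, against 0.081, 0.083 and 0.079 for those genes. Changes of at least 2-fold that passed the test made up 5.30%, 7.61% and 4.63% of tested lincRNAs and 5.52%, 7.56% and 5.86% of tested protein-coding genes. The share called also moved with level: of the 99 lincRNAs of highest TPM, 19.6%, 32.7% and 25.8% of those tested were called in CMP, GMP and MEP, and of the 99 lowest, 10.1%, 14% and 5.19%.

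**Figure D2:**
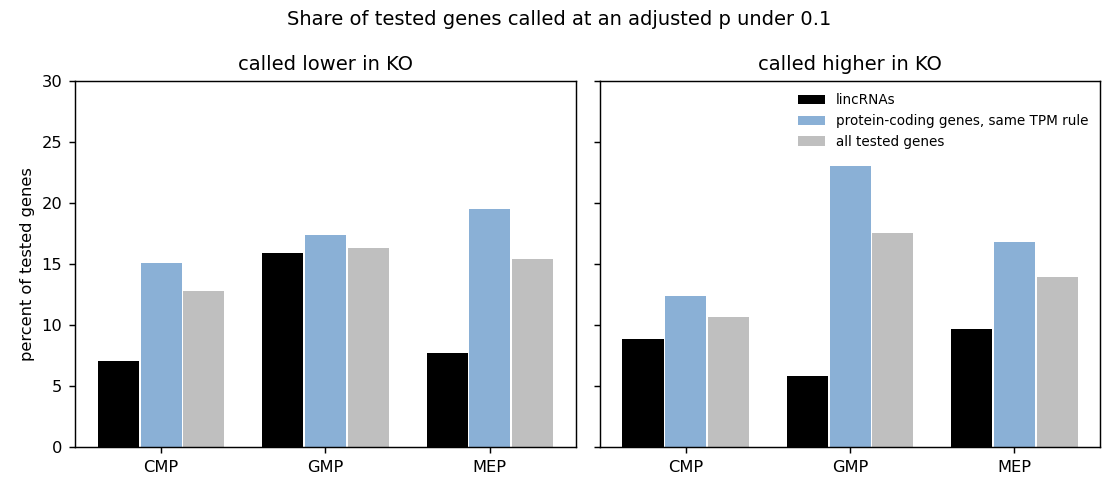
Percent of tested genes (y axis, from 0) called lower (left) or higher (right) in KO than WT at an adjusted p under 0.1 in CMPs, GMPs and MEPs, for the lincRNAs (black), protein-coding genes with the same TPM limit (blue) and all tested genes (gray). The lincRNA bar that rose in GMPs is at 5.80% beside 23.0% of protein-coding genes, while the bars that fell in GMPs lie between 15.94% and 17.4%.

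The marker levels of other cell types also moved between genotypes. In CMPs the 10 erythroid markers summed to 1445 to 1610 TPM in WT and 2531 to 2933 TPM in KO mice, and 9 of 10 rose. The 10 neutrophil markers summed to 4197 to 4889 TPM in WT and 1747 to 2681 TPM in KO CMPs, and 7 fell while Fcnb rose. In GMPs the 7 basophil, mast cell and eosinophil markers summed to 4610 to 9638 TPM in WT and 1184 to 2135 TPM in KO mice, and all 7 fell. The neutrophil markers summed to 40120 to 46380 TPM in KO GMPs. The 7 monocyte and dendritic markers summed to 1243 to 1474 TPM in WT and 2198 to 2461 TPM in KO GMPs, where Ms4a3 rose and Csf1r, Irf8 and Ly86 fell. In MEPs the erythroid markers summed to 7997 to 8879 TPM in WT and 6710 to 7066 TPM in KO mice, and 6 of 10 rose while Car1 fell. The 6 megakaryocytic markers summed to 24.6 to 45.1 TPM in WT and 69.1 to 93.4 TPM in KO MEPs, and Gp9, Pf4 and Vwf rose. In CMPs that sum was 742.4 to 1087 TPM in WT and 562.6 to 578.1 TPM in KO mice, and 5 of 6 fell while Gp9 rose. In GMPs it was 105.3 to 223.7 TPM in WT and 71.3 to 91.1 TPM in KO mice, where Itga2b and Pf4 fell and Gp9 rose. Every marker of these lists was detected in each precursor group. In sorted bulk cells a smaller share of cells of a type and less RNA per cell cannot be told apart, and the part of these shifts in the lincRNA changes was not tested.

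D7Ertd128e and 4930558J18Rik rose in all 3 KO precursor populations, which came from the same mice. D7Ertd128e had 0.326, 0.332 and 0.644 TPM in WT and 2.36, 2.64 and 2.46 TPM in KO CMPs (log2 fold change 2.45, SE 0.33, adjusted p = 0.0014). In GMPs it had 0.281, 0.565 and 0.278 TPM in WT and 1.53, 1.92 and 2.43 TPM in KO (2.58, SE 0.38, adjusted p = 0.001). MEPs had 1.36, 1.49 and 1.06 TPM in WT and 4.56, 4.94 and 3.17 TPM in KO (1.67, SE 0.24, adjusted p = 0.0021). Every KO library was above every WT library of its population. It lies 4689 bases from Cd22, an inhibitory receptor of B cells, which passed the test in none of the 3. 4930558J18Rik changed less, with log2 fold changes of 0.65 (SE 0.24, adjusted p = 0.099), 0.83 (SE 0.25, adjusted p = 0.036) and 0.55 (SE 0.15, adjusted p = 0.036), and its calls held in 2, 4 and 2 of 6 fits with a library left out.

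A group of lincRNAs rose in CMPs and MEPs. Gm43904, on chromosome 6 (87776143 to 87777480, plus strand), ends 592 bases before the start of Gp9 (glycoprotein IX of the platelet von Willebrand factor receptor) on the same strand. Its first exon is shown, with 30 bases of the second in capitals, because this lincRNA had the highest log2 fold change in MEPs and lies so close to Gp9.

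Gm43904-201: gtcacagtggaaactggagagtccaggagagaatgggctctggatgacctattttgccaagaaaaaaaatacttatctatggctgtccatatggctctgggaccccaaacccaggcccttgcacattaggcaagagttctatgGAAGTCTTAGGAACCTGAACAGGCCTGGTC

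Gm43904 had 9.61, 5.35 and 10.5 TPM in WT and 33, 33 and 29.4 TPM in KO CMPs (log2 fold change 1.82, SE 0.26, adjusted p = 0.0017). In MEPs the levels were 6.38, 7.71 and 9.31 TPM in WT and 36.8, 47.6 and 37.2 TPM in KO mice (2.37, SE 0.20, adjusted p = 0.00015). In GMPs it stayed under 2 TPM in every library and its log2 fold change was -0.004 (SE 0.44). Gp9 moved alongside: in MEPs from 6.55, 7.94 and 5.81 TPM to 26.3, 34.2 and 26.8 TPM (log2 fold change 2.08, SE 0.15, adjusted p = 8.1e-05), in CMPs by 0.70 (SE 0.13, adjusted p = 0.0073) and in GMPs by 0.53 (SE 0.18, adjusted p = 0.058). The groups did not overlap for either gene in CMPs or MEPs. In LT-HSCs Gm43904 had 29.8 and 33 TPM in WT and 70.5 and 53.8 TPM in KO mice, which did not pass the test (adjusted p = 0.88).

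1700001L05Rik, 3600 bases upstream of Arfgap3, had 10.3, 4.65 and 6.25 TPM in WT and 23.8, 24.4 and 15.8 TPM in KO CMPs (log2 fold change 1.51, SE 0.23, adjusted p = 0.0022). In MEPs its levels were 19.8, 18 and 19.8 TPM in WT and 46.4, 50.5 and 44.3 TPM in KO (1.27, SE 0.07, adjusted p = 2.9e-05). Arfgap3, a regulator of Golgi transport, rose by 0.40 in CMPs (adjusted p = 0.0066) and 0.60 in MEPs (adjusted p = 0.0019), and WT and KO libraries overlapped for neither gene there. In GMPs 1700001L05Rik changed by 0.34 (SE 0.15) and did not pass.

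1700063H04Rik and Gm33280, both highest in WT MEPs, rose in CMPs and less in MEPs. 1700063H04Rik had 0.19, 0.116 and 0.3 TPM in WT and 2.49, 2.24 and 1.11 TPM in KO CMPs (log2 fold change 3.17, SE 0.48, adjusted p = 0.0024). In MEPs the lincRNA had 5.64, 7.61 and 8.24 TPM in WT and 13.7, 14 and 14.7 TPM in KO (0.96, SE 0.17, adjusted p = 0.006). It was at 0.081 TPM or less in every GMP library. Gm33280 had 0.509, 0.497 and 0.527 TPM in WT and 2.35, 2.67 and 1.47 TPM in KO CMPs (1.98, SE 0.23, adjusted p = 0.00067). MEPs had 4.58, 5.83 and 4.64 TPM in WT and 8.78, 8.42 and 9.11 TPM in KO (0.78, SE 0.11, adjusted p = 0.0018). In CMPs these MEP-high lincRNAs rose beside the erythroid markers listed above, and the part of those markers in the change was not tested.

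5830416I19Rik rose in CMPs, from 1.18, 0.966 and 0.954 TPM to 2.85, 3.33 and 3.26 TPM (log2 fold change 1.51, SE 0.17, adjusted p = 0.0005). It also rose in GMPs, from 1.55, 0.95 and 1.22 TPM to 1.89, 1.93 and 2.06 TPM (0.81, SE 0.21, adjusted p = 0.02). Gm12827, whose exon overlaps Rnf220 on the other strand, rose in CMPs by 0.70 (SE 0.25, adjusted p = 0.09) and in MEPs by 1.57 (SE 0.55, adjusted p = 0.078). Leaving out single libraries ended its call in 4 of 6 CMP fits and 5 of 6 MEP fits. Its WT MEP level was 0.612, 0.125 and 0.691 TPM and its KO MEP level 1.44, 0.942 and 1.97 TPM.

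Gm13431 and Gm19705 rose in KO GMPs. Gm13431, 7492 bases upstream of Ptgs1, the gene for cyclooxygenase 1, had 2.48, 4.19 and 4.7 TPM in WT and 7.79, 25.7 and 11.1 TPM in KO GMPs (log2 fold change 2.21, SE 0.48, adjusted p = 0.0084). Mouse 304 was far above the other 2 KO mice. Ptgs1 rose in the same cells from 30.2, 39.4 and 32.1 TPM to 72.1, 108.8 and 80 TPM (1.48, SE 0.15, adjusted p = 0.00015). Gm19705 had 0.893, 0.179 and 0.675 TPM in WT and 2.12, 2.28 and 1.29 TPM in KO GMPs (1.46, SE 0.54, adjusted p = 0.08). Leaving out single libraries ended that call in 4 of 6 fits.

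AY036118 had the highest fitted rise in GMPs (log2 fold change 4.41, SE 1.02, adjusted p = 0.011), from 0, 2.75 and 0 TPM to 25.4, 9.81 and 14.9 TPM. It is a single-exon lincRNA on chromosome 17 that overlaps Gm42418 on the other strand, at copies of the ribosomal RNA repeat, and its reads may belong to either. Its MEP levels were 39, 0 and 224 TPM in WT and 111, 83.4 and 258 TPM in KO mice, so it varied widely within a group and is given as uncertain. DESeq2 did not call the rise in GMPs.

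Among the lincRNAs that fell, 2310040G24Rik, Gm29562 and 4930519L02Rik joined AI427809 in falling in all 3 precursor populations. 2310040G24Rik had 3.83, 5.4 and 5.74 TPM in WT and 1.9, 2.48 and 1.76 TPM in KO CMPs (log2 fold change -1.29, SE 0.25, adjusted p = 0.0078). In GMPs it had 5.36, 6.06 and 5.1 TPM in WT and 3.41, 2.87 and 2.61 TPM in KO (-0.72, SE 0.20, adjusted p = 0.028). MEPs had 6.45, 5.28 and 6.19 TPM in WT and 1.14, 1.01 and 1.4 TPM in KO (-2.35, SE 0.22, adjusted p = 0.00028). No KO library reached the WT range in any of them. In LT-HSCs it had 6.94 and 6.08 TPM in WT and 3.83 and 4.23 TPM in KO (adjusted p = 0.94).

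Gm29562 and 4930519L02Rik were among the 10 highest lincRNAs and changed less in some populations. Gm29562 had 197, 197 and 155 TPM in WT and 130, 174 and 152 TPM in KO CMPs, where the groups overlapped (log2 fold change -0.36, SE 0.12, adjusted p = 0.075). In GMPs it had 142, 132 and 94.7 TPM in WT and 70.5, 73.5 and 62.3 TPM in KO (-0.67, SE 0.13, adjusted p = 0.0051), and its change in MEPs was -0.46 (SE 0.13, adjusted p = 0.041). 4930519L02Rik fell by 0.53, 1.28 and 1.21 on the log2 scale in CMPs, GMPs and MEPs (adjusted p = 0.09, 0.0021 and 0.066). The CMP calls of both were lost when all 18 libraries were fitted together. Over the 6 fits with a library left out, the call of Gm29562 held in 2 in CMPs, 6 in GMPs and 5 in MEPs, and that of 4930519L02Rik in 1, 6 and 2.

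4933424M12Rik lies 12340 bases upstream of Lrp8, on the strand of that gene, an apolipoprotein E receptor. It had 1.88, 1.71 and 2.37 TPM in WT and 0.144, 0.292 and 0.279 TPM in KO CMPs (log2 fold change -3.08, SE 0.31, adjusted p = 0.00032). In GMPs, where it was highest, it had 5.23, 4.38 and 4.26 TPM in WT and 1.1, 1.08 and 1.2 TPM in KO (-1.93, SE 0.19, adjusted p = 0.00013). It was under 0.1 TPM in every MEP library and was not tested there. Lrp8 fell in CMPs by 0.66 (SE 0.09, adjusted p = 0.0011) and in MEPs by 2.15 (SE 0.11, adjusted p = 1.7e-05), but not in GMPs (-0.07, adjusted p = 0.66). In LT-HSCs 4933424M12Rik had 60 counts over the WT and 0 over the KO libraries, at least 25.7-fold lower against a floor of 3 counts over the group, and did not pass the test.

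Gm38708, on chromosome 6 (88188397 to 88190681, minus strand), lies 3210 bases from Gata2, a transcription factor of stem and progenitor cells, and is transcribed away from it. In MEPs it had 7, 5.84 and 7.22 TPM in WT and 1.49, 0.809 and 1.2 TPM in KO mice (log2 fold change -2.53, SE 0.27, adjusted p = 0.00047). Gata2 fell there from 73.8, 61.7 and 56.2 TPM to 14.8, 20.9 and 18.6 TPM (-1.84, SE 0.11, adjusted p = 2.9e-05). In CMPs Gm38708 had 7.44, 5.23 and 5.21 TPM in WT and 5.54, 4.49 and 4.16 TPM in KO, levels that overlapped (-0.43, SE 0.22, adjusted p = 0.24), while Gata2 fell by 0.69 (adjusted p = 0.00042). Gata2 also fell in GMPs, by 1.70 (SE 0.11, adjusted p = 1.1e-05), where Gm38708 was at 1.2 TPM or less and was not tested.

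3300005D01Rik, 38089 bases upstream of Snx9, a sorting nexin of endocytosis, fell in MEPs from 9.22, 11.4 and 8.09 TPM to 1.64, 1.78 and 1.76 TPM (log2 fold change -2.15, SE 0.24, adjusted p = 0.00059). Its CMP level did not change by the test (-0.03, SE 0.22) and its GMP change was 0.65 (SE 0.27, adjusted p = 0.11). Snx9 fell in MEPs by 0.63 (SE 0.06, adjusted p = 0.00036) and rose in GMPs by 0.39 (SE 0.07, adjusted p = 0.0031). Gm15290 fell in MEPs from 4.67, 9.27 and 6.23 TPM to 2.38, 2.21 and 1.44 TPM (-1.76, SE 0.32, adjusted p = 0.0062). It was listed at 0 TPM in every GMP library and shares exonic sequence with Gm49496 on the same strand. Gm14321 fell in MEPs from 6.9, 4.11 and 4.34 TPM to 2.37, 1.65 and 1.7 TPM (-1.69, SE 0.34, adjusted p = 0.009) and by 0.60 in CMPs (SE 0.20, adjusted p = 0.069). An exon of Gm14321 overlaps 9230111E07Rik on the same strand.

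5730460C07Rik fell in GMPs, and its change there differed from those in CMPs and MEPs. It had 1.98, 1.61 and 1.79 TPM in WT and 0.212, 0.235 and 0.217 TPM in KO GMPs (log2 fold change -2.85, SE 0.25, adjusted p = 5.9e-05). Its changes were -0.02 (SE 0.32) in CMPs and -0.06 (SE 0.16) in MEPs. The GMP change less the CMP change was -2.79 (SE 0.32, adjusted p = 7.1e-05), and the MEP change less the GMP change 2.79 (SE 0.30, adjusted p = 2.5e-05). Gm19708 fell in GMPs from 1.02, 1.08 and 1.66 TPM to 0, 0 and 0.335 TPM (-3.22, SE 0.85, adjusted p = 0.02). Gm29408, a single exon of 216 bases, fell there from 16.2, 15 and 26.2 TPM to 5.26, 5.95 and 5.56 TPM (-1.60, SE 0.34, adjusted p = 0.0079).

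Gm38399, Gm43634 and Gm26778 share exonic sequence with protein-coding genes that moved the same way, so their counts are uncertain. Gm38399, on the strand of Nav1, fell by 1.84 in GMPs (SE 0.39, adjusted p = 0.0069) while Nav1 fell by 1.96 (SE 0.15, adjusted p = 2.7e-05). Gm43634, on the strand of Cracr2a, rose by 1.23 in GMPs (SE 0.15, adjusted p = 0.00034) and fell by 0.76 in MEPs (SE 0.23, adjusted p = 0.051), as Cracr2a rose by 1.10 and fell by 0.66. Gm26778, opposite Kctd12, rose by 0.89 in GMPs (SE 0.14, adjusted p = 0.0016), and Kctd12 rose by 0.56 (adjusted p = 0.0001).

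Other falls in CMPs were those of 2310075C17Rik, 4930562F07Rik and AI839979. 2310075C17Rik had 8.02, 7.26 and 6.53 TPM in WT and 1.07, 0.321 and 4.16 TPM in KO CMPs (log2 fold change -2.07, SE 0.64, adjusted p = 0.057), a spread of KO levels under which leaving out single libraries ended the call in 4 of 6 fits. 4930562F07Rik fell from 1.3, 1.5 and 1.35 TPM to 0.526, 0.54 and 0.51 TPM (-1.41, SE 0.32, adjusted p = 0.017). Its exon lies opposite 4930523C07Rik, which fell by 1.27 (SE 0.13, adjusted p = 0.00033). AI839979 fell by 1.31 (SE 0.39, adjusted p = 0.048), with KO libraries at 0.898 to 1.94 TPM and WT at 2.38 to 5.96 TPM, and was called in 3 of 6 fits with a library left out.

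**Figure D3:**
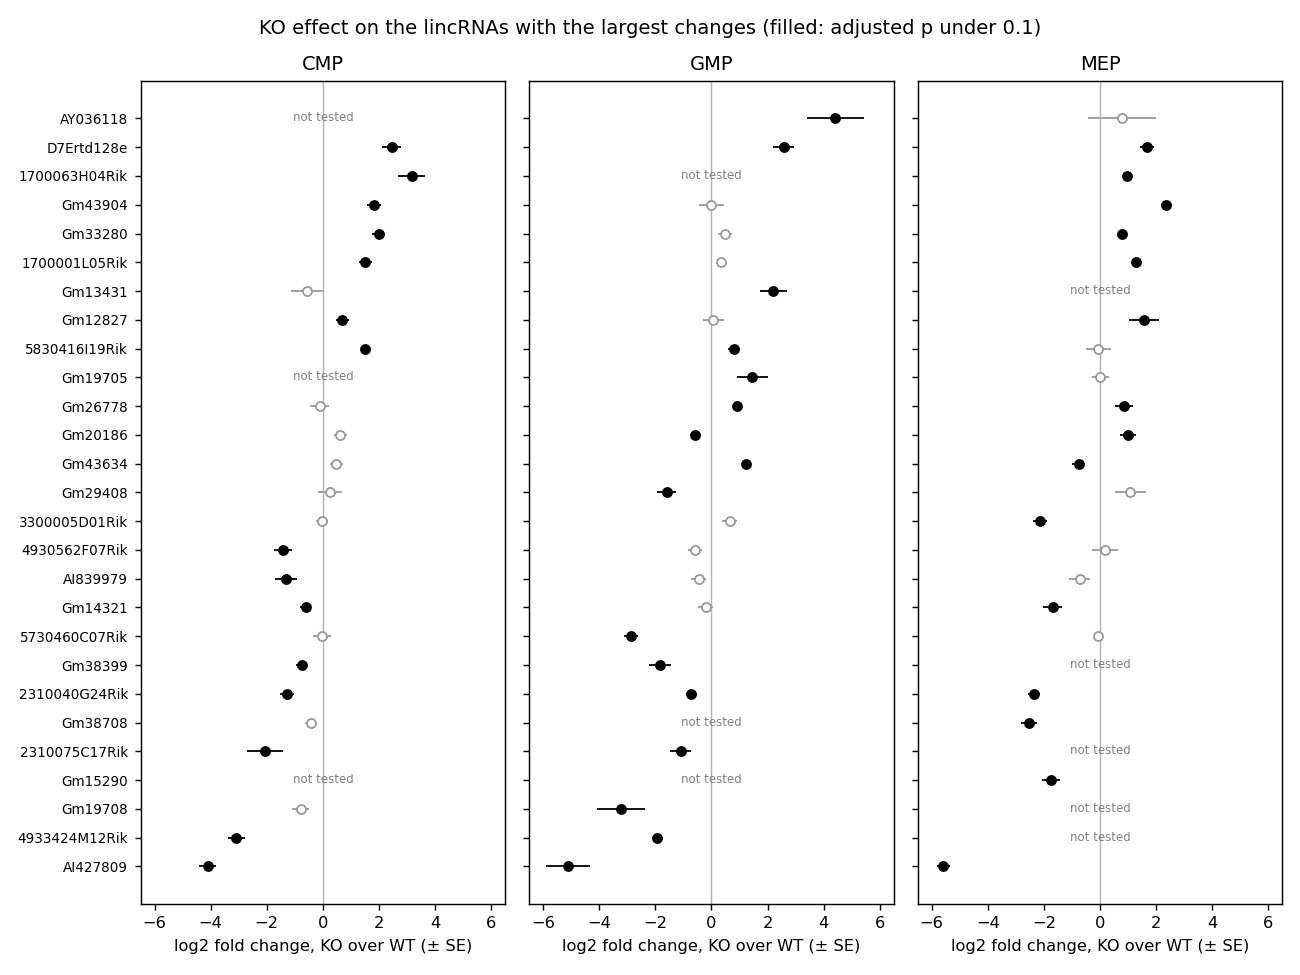
Log2 fold change of KO over WT with its SE (x axis) for the lincRNAs with the largest calls in CMPs, GMPs and MEPs (y axis, sorted by mean effect), filled where the adjusted p was under 0.1 and open where it was not. AI427809 lies at -4.11, -5.10 and -5.59, and 5730460C07Rik is at -2.85 in GMPs and near 0 in the other populations.

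Promoters were read for lincRNAs that RefSeq also places, 117 of the 297, from 250 bases before to 50 bases after the start (GRCm38.p6). Those of 2 lincRNAs that rose and 2 that fell are shown because these lincRNAs are described above. Letters bound by GATA factors (AGATAA), by ETS factors (GGAAGT) and by RUNX factors (TGTGGT) were searched on both strands, with matches in capitals. A match is a description of letters.

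1700063H04Rik promoter (chr6:122391129-122391428, plus strand): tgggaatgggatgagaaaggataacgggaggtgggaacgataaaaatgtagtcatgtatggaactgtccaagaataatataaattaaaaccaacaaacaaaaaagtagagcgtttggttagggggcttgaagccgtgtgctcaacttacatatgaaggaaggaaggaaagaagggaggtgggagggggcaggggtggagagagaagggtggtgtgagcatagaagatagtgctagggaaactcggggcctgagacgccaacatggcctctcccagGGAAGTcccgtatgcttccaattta
1700001L05Rik promoter (chr15:83367248-83367547, minus strand): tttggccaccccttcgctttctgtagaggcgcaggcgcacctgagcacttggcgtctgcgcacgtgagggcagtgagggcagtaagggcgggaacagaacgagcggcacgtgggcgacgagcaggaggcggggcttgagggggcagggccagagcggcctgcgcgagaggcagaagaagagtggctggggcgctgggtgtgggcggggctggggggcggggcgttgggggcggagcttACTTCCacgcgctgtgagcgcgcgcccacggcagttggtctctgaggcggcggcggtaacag
4933424M12Rik promoter (chr4:107783436-107783735, plus strand): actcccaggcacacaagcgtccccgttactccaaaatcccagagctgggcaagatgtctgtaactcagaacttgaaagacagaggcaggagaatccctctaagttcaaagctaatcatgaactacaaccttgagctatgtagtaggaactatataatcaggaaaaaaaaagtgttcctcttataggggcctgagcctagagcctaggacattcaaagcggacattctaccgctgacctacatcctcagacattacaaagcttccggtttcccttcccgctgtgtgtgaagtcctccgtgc
2310040G24Rik promoter (chr6:86488178-86488477, minus strand): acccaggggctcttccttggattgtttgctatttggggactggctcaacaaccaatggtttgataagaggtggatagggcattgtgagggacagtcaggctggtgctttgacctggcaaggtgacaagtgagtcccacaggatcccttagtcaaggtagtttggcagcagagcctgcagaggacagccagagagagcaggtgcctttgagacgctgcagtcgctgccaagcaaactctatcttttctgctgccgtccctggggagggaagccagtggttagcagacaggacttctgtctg

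The promoters of 1700063H04Rik and 1700001L05Rik held the ETS letters, on opposite strands, and those of 4933424M12Rik and 2310040G24Rik held none of the 3 motifs. The motifs did not follow the direction of change in the other promoters read for named lincRNAs: that of Gm33280, which rose, held none, while those of 5830416I19Rik, which rose, and Gm14321, which fell, held all 3. Over all 27025 promoters of the same length, 24% held the ETS, 11.3% the GATA and 17.0% the RUNX letters. Over the 117 lincRNAs the shares were 26.5%, 7.69% and 17.9%.

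There were 10 lincRNAs called in opposite directions in different KO populations, of 281 tested in at least 2 of the 3 (3.56%). By the same rule 5.94% of all genes and 8.09% of the protein-coding genes were. They were picked for that pattern after their values were seen. Gm26809 was the highest of them, and it overlaps Gm20186 on the other strand, so their reads cannot be told apart. Gm26809 had 121, 71.1 and 127 TPM in WT and 173, 142 and 195 TPM in KO CMPs (log2 fold change 0.58, SE 0.20, adjusted p = 0.092). In GMPs it had 54.3, 38.1 and 58.3 TPM in WT and 18.3, 18.3 and 24.7 TPM in KO (-1.15, SE 0.18, adjusted p = 0.0016). MEPs had 112, 73.3 and 136 TPM in WT and 196, 159 and 237 TPM in KO (0.86, SE 0.23, adjusted p = 0.032). WT mouse 305 was the lowest of its group in each population, and the calls held in 2, 6 and 5 of 6 fits with a library left out. The nearest protein-coding gene, Lsm8, an RNA-processing factor, was not called in any of the 3, with its largest log2 fold change 0.05 in GMPs.

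Slmapos2, Gm12840 and 5930430L01Rik were likewise lower in KO GMPs and higher in KO CMPs, KO MEPs or both. Slmapos2 had log2 fold changes of 0.47 (SE 0.13, adjusted p = 0.036) in CMPs, -0.69 (SE 0.17, adjusted p = 0.016) in GMPs and 0.63 (SE 0.19, adjusted p = 0.051) in MEPs. 5930430L01Rik had 0.49, -0.99 and 0.48 (SE 0.16, 0.21 and 0.13, adjusted p = 0.076, 0.0079 and 0.031). Gm12840 fell by 0.78 in GMPs (SE 0.24, adjusted p = 0.041) and rose by 0.88 in MEPs (SE 0.22, adjusted p = 0.026), and its change of 0.57 in CMPs did not pass. With a library left out, the calls of Slmapos2 held in 5, 6 and 3 of 6 fits in CMPs, GMPs and MEPs, those of 5930430L01Rik in 1, 6 and 5, and those of Gm12840 in 4 GMP and 6 MEP fits. The remaining members of the set were Gm20186, Gm17275, 5430416N02Rik, 1810058I24Rik, Gm28875 and Gm43634. 1810058I24Rik fell in CMPs by 0.36 (SE 0.07, adjusted p = 0.006) and rose in MEPs by 0.26 (SE 0.08, adjusted p = 0.059), calls that held in 6 and 3 of 6 such fits.

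**Figure D4:**
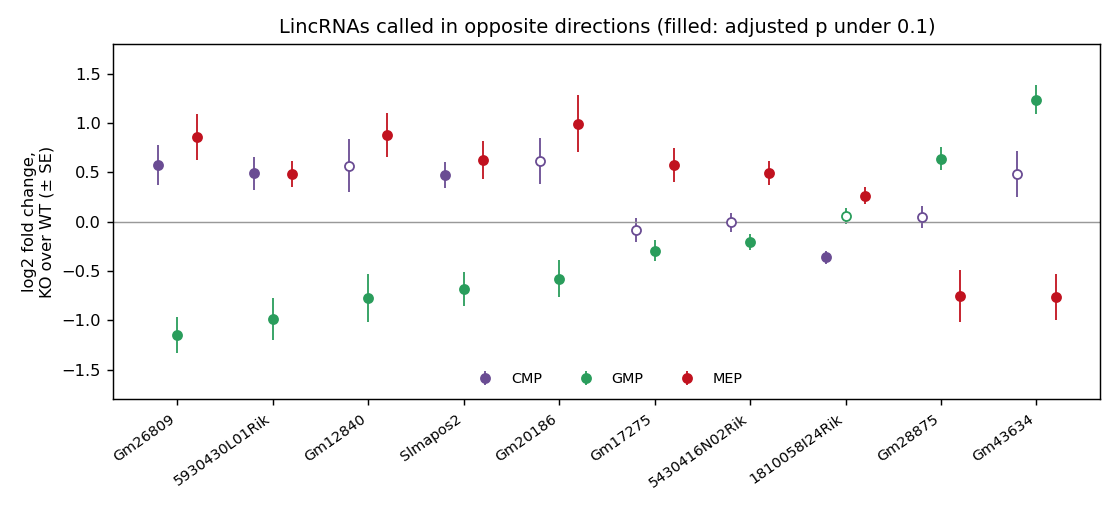
Log2 fold change of KO over WT with its SE (y axis) in CMPs, GMPs and MEPs for the 10 lincRNAs called in opposite directions (x axis), filled where the adjusted p was under 0.1. Gm26809 lies at 0.58 in CMPs, -1.15 in GMPs and 0.86 in MEPs, and Gm43634 at 1.23 in GMPs and -0.76 in MEPs.

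The difference between KO effects was tested across all 18 libraries of precursors, with a block for each mouse. The effect in GMPs differed from that in CMPs for 44 of 293 lincRNAs (15.02%), where 21.0% of all genes differed. MEPs differed from CMPs for 30 (10.24%), where 13.0% did, and MEPs from GMPs for 51 (17.41%), where 26.8% did. Each share was below that of all genes. These comparisons share libraries. Without WT mouse 309 the counts were 25, 14 and 33. The MEP less CMP count was 14 without KO mouse 304 and 19 without KO mouse 301, and the GMP less CMP count 29 without KO mouse 301.

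Within the WT mice, 186 of 287 lincRNAs differed between MEPs and CMPs (64.81%, where 70.4% of all genes did), 171 between GMPs and MEPs (59.58%, where 70.4% did) and 95 between GMPs and CMPs (33.1%, where 40.9% did). These contrasts share libraries, so they are not independent. The same mice gave all 3 populations, but the mouse was not a block in this fit. The last count was 59 without mouse 309 and 63 without mouse 300. The level averaged over all 18 libraries chose the lincRNAs, and a lincRNA could pass through 1 population. CMPs had the highest WT mean for 149 of the 297, MEPs for 82 and GMPs for 66. The highest population held a median of 45.8% of the WT TPM summed over the 3, against 43.2% for all tested genes and 41.7% for protein-coding genes. The lincRNAs were lower than those protein-coding genes (median 2.88 against 24 TPM), and the part of level in this gap was not tested.

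By the test, 30 lincRNAs were higher in CMPs than in both other WT populations (10.5%, where 11.1% of all genes were), 19 were higher in GMPs (6.62%, where 12.8% were) and 58 in MEPs (20.2%, where 28.7% were). A share of at least 80% of the WT TPM in 1 population was held by 16 of 297 (5.39%), against 3.89% of all tested genes and 3.19% of protein-coding genes. Without WT mouse 309 the CMP count was 16 and the GMP count 12, and without WT mouse 300 the CMP count was 18.

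In MEPs the lincRNAs of largest share that were also called were AY036118, Gm15290, 1700063H04Rik, Gm12596 and Gm33280. Gm15290 held 97.0% of its WT TPM in MEPs, at 4.67, 9.27 and 6.23 TPM against 0.185, 0.188 and 0.242 TPM in CMPs. 1700063H04Rik held 96.9% in MEPs, and its log2 difference from CMPs was 5.47 (SE 0.46, adjusted p = 2.1e-06). Gm33280 held 85.0% (MEPs over CMPs 3.61, SE 0.19, adjusted p = 9.7e-08). AY036118 held 98.9% but was at 0 TPM in WT MEPs of mouse 305. AI427809 held 66.6% of its WT TPM in MEPs and was higher there than in CMPs by 1.62 (SE 0.20, adjusted p = 3.9e-05) and than in GMPs (GMPs over MEPs -4.23, SE 0.24, adjusted p = 7.6e-08).

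In GMPs the leading lincRNAs were Gm45151, 1810006J02Rik, Gm14005, Gm13710 and Gm807. Gm14005, known as Morrbid, a regulator of myeloid cell survival, had 22.2, 16.2 and 21.5 TPM in WT GMPs against 2.08, 3.56 and 3.94 TPM in CMPs and at most 0.292 TPM in MEPs. Its share in GMPs was 85.8%. KO GMPs had 20.7, 19.6 and 18.2 TPM, and Gm14005, whose exons overlap Gm14012 and Gm14009, was not called (0.22, SE 0.14, adjusted p = 0.32). The nearby Bcl2l11, the pro-apoptotic Bim, rose in CMPs by 0.46 (adjusted p = 0.0037) and in MEPs by 0.72 (adjusted p = 0.00026), in MEPs from 13.3, 14 and 14 TPM to 22.4, 22.2 and 21 TPM. Gm45151 held 89.3%, 1810006J02Rik 87.4%, Gm13710 85.2% and Gm807 80.2% of the WT TPM in GMPs. None of these 5 was called in KO GMPs.

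In CMPs the leading lincRNAs were Gm20467, Gm19590, Gm10419, Gm44226 and AI504432. Gm19590 had 43.3, 28.7 and 38.6 TPM in WT CMPs against 2.47 to 5.28 TPM in GMPs and 0.826 to 5.48 TPM in MEPs, a share of 83.9%, and 364 and 224 TPM in WT LT-HSCs. Gm20467, 1700 bases from Nkx2-3, a homeobox gene, had 2.55, 3 and 2.11 TPM in CMPs and 55.7 and 32.1 TPM in LT-HSCs. The LT-HSC libraries were made with another kit, so these 2 levels are set side by side only. Gm10419 was the exception in this group in falling in KO CMPs (-0.67, SE 0.20, adjusted p = 0.049), a call lost in the 18-library fit, with a length offset and in 4 of 6 fits with a library left out. AI504432 lies 1434 bases from Kcna3, a potassium channel, and fell in GMPs (-0.74, SE 0.13, adjusted p = 0.0028), where Kcna3 fell by 0.53 (adjusted p = 0.031).

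**Figure D5:**
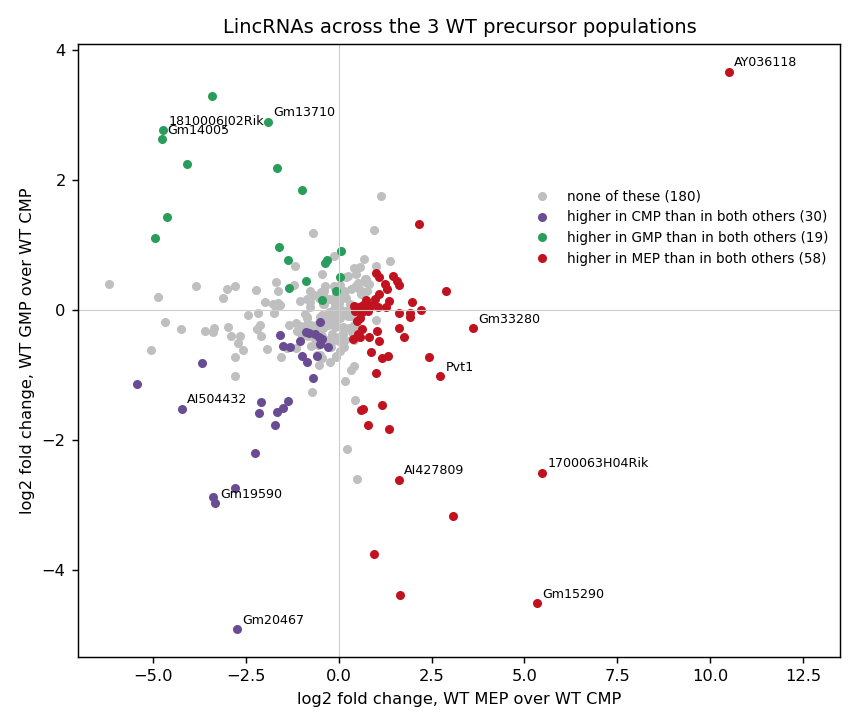
Log2 fold change of WT MEPs over WT CMPs (x axis) and of WT GMPs over WT CMPs (y axis) for the 287 tested lincRNAs, colored where a lincRNA was higher in 1 population than in both others at an adjusted p under 0.1. MEP-high lincRNAs (58, red) lie right, CMP-high lincRNAs (30, purple) low left and GMP-high lincRNAs (19, green) high left, with 1700063H04Rik at 5.47 and -2.50.

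Restriction was compared between genotypes as a description. In KO mice 17 of 297 lincRNAs held at least 80% in 1 population (5.72%), against 5.86% of all tested genes and 4.72% of protein-coding genes. Of 16 lincRNAs with at least 80% in a WT population, 12 had it in the same population in KO mice, 4 did not, and 5 others reached it in KO alone. Of those 5, Gm13431 held 84.4% and 4933424M12Rik 80.9% of the KO TPM in GMPs. The highest population differed between WT and KO for 78 of 297 (26.3%), and for 22.1% of all tested genes. Of 58 MEP-high lincRNAs 9 fell (15.5%) and 10 rose (17.2%) in KO MEPs, where 18.4% of all MEP-high genes fell and 17.3% rose. Of 30 CMP-high lincRNAs 4 fell (13.3%) and 1 rose (3.33%) in KO CMPs, where 24.4% of all CMP-high genes fell and 15.2% rose. Of 19 GMP-high lincRNAs 2 fell (10.5%) and 1 rose (5.26%) in KO GMPs, where 18.2% of all GMP-high genes fell and 41.4% rose. The same WT libraries chose these genes and entered the KO contrasts.

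Pvt1, which lies downstream of Myc and overlaps H2afy3 on the other strand, was higher in MEPs and held 83.0% of its WT TPM there. It fell in MEPs from 35.4, 45.9 and 34.4 TPM to 18.8, 19.4 and 15.9 TPM (log2 fold change -0.88, SE 0.10, adjusted p = 0.00065), and in GMPs from 1.85, 2.12 and 2.11 TPM to 1.1, 0.768 and 0.839 TPM (-0.99, SE 0.23, adjusted p = 0.011). Myc fell by 0.43 in MEPs (SE 0.07, adjusted p = 0.0041), from 319.4, 285.5 and 344.8 TPM to 244.9, 238.3 and 233.8 TPM, and by 0.23 in GMPs (adjusted p = 0.055). Pvt1 belongs to a list of noncoding genes with described roles in blood cells or the p53 response. Of that list 10 genes were in the files, and only 2, Pvt1 and Gm14005, met the annotation and level rules used here. None of 6 tested passed in CMPs, 3 of 6 fell in GMPs and 2 of 4 in MEPs, where 12.8%, 16.3% and 15.4% of all genes fell. Besides Pvt1, those that fell were Gm15545 and Trp53cor1 in GMPs and AI506816 in MEPs, all outside the chosen lincRNAs.

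Of 17 snoRNA host genes in the files, 3 of 15 tested fell in CMPs, 5 of 15 in GMPs and 6 of 16 in MEPs, and none rose. Of all genes tested 12.8%, 16.3% and 15.4% fell and 10.6%, 17.5% and 14% rose. Their median log2 fold change was -0.069, -0.183 and -0.201. Of these, Snhg6, Snhg12, Snhg20 and Epb41l4aos, are among the 297. Snhg12 fell from 122, 130 and 110 TPM to 117, 96.5 and 95.6 TPM in CMPs (-0.35, SE 0.10, adjusted p = 0.034) and from 327, 278 and 310 TPM to 256, 226 and 218 TPM in MEPs (-0.37, SE 0.09, adjusted p = 0.023). Snhg20 fell in MEPs by 0.37 (SE 0.09, adjusted p = 0.025). Epb41l4aos fell in GMPs by 0.37 (SE 0.12, adjusted p = 0.046) and in MEPs by 0.31 (SE 0.10, adjusted p = 0.059). Snhg6 passed in none.

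Of 3 nuclear-body lincRNAs, Malat1, Neat1 and Miat, 1 fell and 1 rose in CMPs, and neither of the 2 tested in GMPs and MEPs passed. Miat, which is not among the 297, rose in CMPs (log2 fold change 3.05, SE 0.54, adjusted p = 0.0052) at a mean of 0.040 TPM over the 18 libraries. Malat1 fell in CMPs (-0.36, SE 0.13, adjusted p = 0.084), with WT and KO levels that overlapped and a call lost with a length offset, in the 18-library fit and in 5 of 6 fits with a library left out. Neat1 had log2 fold changes of -0.25, -0.20 and -0.17, none of which passed. Malat1 was at 36.5 to 54.1 TPM in CMPs and at higher levels in the LT-HSC libraries, made with another kit. Of 14 paraspeckle proteins, which build the bodies around Neat1, none was called in CMPs or MEPs and Smarca4 and Taf15 rose in GMPs. Smarca4 encodes BRG1, which is also a catalytic subunit of SWI/SNF, the complex that holds ARID1A. In CMPs, GMPs and MEPs 10.6%, 17.5% and 14% of all tested genes rose and 12.8%, 16.3% and 15.4% fell.

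Of 17 genes of the nuclear exosome, an RNA decay complex, and its adaptors, 1 rose in CMPs, 1 in GMPs and 2 rose and 2 fell in MEPs. Of 14 nonsense-mediated decay factors, which degrade some spliced RNAs, 1, 4 and 2 rose and none fell in the 3 populations. Of all genes tested 10.6%, 17.5% and 14% rose and 12.8%, 16.3% and 15.4% fell.

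Mir142hg and Mir17hg are microRNA hosts, and neither was called in any precursor population. Mir142hg, among the 10 highest, had 199, 149 and 246 TPM in WT and 276, 233 and 283 TPM in KO CMPs (0.32, SE 0.18, adjusted p = 0.29). Mir17hg had 16.9, 16.1 and 17.2 TPM in WT and 20.5, 21 and 15.5 TPM in KO MEPs (0.15, SE 0.09, adjusted p = 0.31). The mature products are shown, seed in capitals (bases 2 to 8), because the TPM measured here is that of the host and not of the microRNA. From Mir17hg, RefSeq lists 11 mature microRNAs from 6 hairpins with 9 seeds, and the pairs with a shared seed are given.

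miR-142a-5p: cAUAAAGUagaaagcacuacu
miR-142a-3p: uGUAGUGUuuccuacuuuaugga
miR-17-5p: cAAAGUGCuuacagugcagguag
miR-20a-5p: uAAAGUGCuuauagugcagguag
miR-19a-3p: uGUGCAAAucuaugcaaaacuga
miR-19b-3p: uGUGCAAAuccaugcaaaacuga

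Mirt1 was listed with these hosts, but microRNAs were not looked for in it, so it is not shown to be a host. Mirt1 fell in CMPs from 3.61, 2.44 and 4.18 TPM to 2.21, 1.8 and 2.28 TPM (-0.77, SE 0.19, adjusted p = 0.024).

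The nearest protein-coding gene of a called lincRNA was called the same way for 16 of 45 in CMPs, 18 of 60 in GMPs and 15 of 45 in MEPs, and the other way for 1, 6 and 3. Of these neighbors 42, 51 and 42 were tested. Among all tested genes 12.8%, 16.3% and 15.4% fell and 10.6%, 17.5% and 14% rose. The same-way counts compare with these shares for 1 direction. Called in either direction were 23.4%, 33.9% and 29.4% of all tested genes. Of called lincRNAs whose neighbor was beyond 50 kb, 3 of 9, 2 of 11 and 1 of 7 had a neighbor called the same way. Overlapping genes can share reads, so the counts near a neighbor are not independent of it.

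In LT-HSCs, which did not enter the choice, none of 279 tested lincRNAs was called by edgeR (0.0792% of all genes were) and DESeq2 called 1. An unadjusted p under 0.05 was reached by 13 (4.66%), where 5.19% of all genes did. Of those 13, 11 were lower in KO, but without WT mouse S245 it was 5 of 17. The median log2 fold change of the lincRNAs was -0.296, and that of all genes -0.158. Without WT mouse S245 the lincRNA median was 0.193, so its sign rested on that library. The median SE of a lincRNA there was 0.883.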

How the data were processed

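RNA was measured in 22 libraries of sorted mouse bone marrow cells. Precursor libraries were made with TruSeq from poly-A selected RNA, so lincRNAs without a poly-A tail are under-represented, and LT-HSC libraries with SMART-Seq v4. Reads were assigned by the authors with kallisto to mouse transcripts (GRCm38). The authors deposited an estimated count, an effective length and a TPM for each of 115088 transcripts, of which 114200 (99.2%) matched GENCODE vM21. Fragments shared by transcripts are split between them, so genes that share exons are uncertain.

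For each gene the deposited estimated counts of its transcripts were added up and rounded, and so were TPM values without rounding. WT and KO libraries were compared within each population with edgeR 4.0.16 in R 4.3.3 (quasi-likelihood F-test, TMM, filterByExpr), with Benjamini-Hochberg adjustment over all tested genes and a threshold of 0.1. The SE was taken from the fold change and its F statistic. WT populations and the interactions were each fitted jointly, the interactions with the mouse as a block, since 1 mouse gave all 3 populations. The correlation of deviations of the same mouse in 2 populations ran from -0.05 to 0.46.

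The members and lists were chosen with earlier results of these data known. Named lincRNAs are AI427809, up to 6 rises and 6 falls per precursor population with groups that do not overlap, the 5 of largest share per WT population, the 10 highest, list members, those at the TPM limit, the largest interactions and nearest protein-coding genes. Others were named after their values were seen, as stated. Alternatives were DESeq2 1.42.0, size factors, no filter, a length offset, 1 fit of 18 libraries, replicate blocks, other limits and each library left out. Simulated counts in which 200 genes were changed served to test the models. Different mouse numbers are all that is known of replicate independence, so p-values measure the spread between these libraries.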

Additional observations from a re-analysis of the deposited data

Results flagged for a closer look

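The KO effect of the following lincRNAs differed between precursor populations by the interaction test, with the mouse as a block. Values are differences of log2 fold changes.

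Between GMPs and CMPs (GMP less CMP) the difference was 8.75 (SE 1.63, adjusted p = 0.0034) for Gm26508, -5.78 (SE 2.12, adjusted p = 0.095) for 1700063H04Rik, -2.79 (SE 0.32, adjusted p = 7.1e-05) for 5730460C07Rik, -1.74 (SE 0.11, adjusted p = 1e-06) for Gm26809, -1.49 (SE 0.23, adjusted p = 0.00065) for 5930430L01Rik and -1.13 (SE 0.12, adjusted p = 4.4e-05) for Slmapos2. Between MEPs and CMPs (MEP less CMP) it was 7.22 (SE 1.81, adjusted p = 0.028) for Gm26508, -2.54 (SE 0.61, adjusted p = 0.03) for Gm15290, -2.17 (SE 0.53, adjusted p = 0.025) for 1700063H04Rik and 0.62 (SE 0.09, adjusted p = 0.00069) for 1810058I24Rik.

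The fitted Gm26508 values are no bound, because its CMP counts were 119 over the WT and 0 over the KO libraries, at least 39.7-fold lower against a floor of 3 counts over the group. WT CMP mice had 1.67, 0.14 and 0.417 TPM, so mouse 300 carried most of it. In GMPs its change was 0.73 (SE 0.43) and in MEPs -0.62 (SE 0.37), neither of which passed. 1700063H04Rik was at 0.081 TPM or less in every GMP library, so its difference between GMPs and CMPs rests on a gene near 0 in GMPs. Gm15290 had 3, 3 and 3 counts in WT and 5, 9 and 3 in KO CMPs and was not tested there on its own. Its difference between MEPs and CMPs thus rests on a gene near 0 in CMPs.

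Between MEPs and GMPs (MEP less GMP) the difference was 2.86 (SE 0.87, adjusted p = 0.033) for 1010001B22Rik, -2.79 (SE 0.33, adjusted p = 4.9e-05) for 3300005D01Rik, 2.79 (SE 0.30, adjusted p = 2.5e-05) for 5730460C07Rik, 2.0 (SE 0.11, adjusted p = 1.3e-07) for Gm26809, -2.02 (SE 0.29, adjusted p = 0.00025) for Gm43634 and 1.65 (SE 0.16, adjusted p = 1.1e-05) for Gm12840. It was 1.59 (SE 0.19, adjusted p = 4.7e-05) for Gm20186, 1.47 (SE 0.23, adjusted p = 0.00042) for 5930430L01Rik, -1.4 (SE 0.24, adjusted p = 0.00087) for Gm28875, 1.3 (SE 0.12, adjusted p = 7.3e-06) for Slmapos2, 0.83 (SE 0.17, adjusted p = 0.0035) for Gm17275 and 0.70 (SE 0.14, adjusted p = 0.0031) for 5430416N02Rik. 1010001B22Rik did not pass the filter on low counts in MEPs and was not tested there on its own. Its GMP change of -0.94 was called in 0 of 6 fits with a library left out.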

How the results depend on the processing

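In the precursors no called lincRNA changed direction with a library left out. No named called lincRNA changed direction under the other settings, and the rest were not checked under those. Leaving out 1 library in turn moved the count of called lincRNAs from 45 to between 25 and 44 in CMPs (25 without KO mouse 301), from 60 to between 39 and 66 in GMPs (39 without WT mouse 309), from 45 to between 26 and 49 in MEPs (26 without KO mouse 301, 29 without WT mouse 300), and from 0 to between 0 and 28 in LT-HSCs (28 without WT mouse S269, 2 without KO mouse S244, 3 without WT mouse S245). Each LT-HSC fit of that kind sets 2 libraries against 1, with the lone library assumed to vary like the other group. Split by direction, the ranges were 9 to 26 lower and 16 to 24 higher in CMPs, 28 to 51 lower and 11 to 16 higher in GMPs, 14 to 28 lower and 12 to 24 higher in MEPs, and 0 to 27 lower and 0 to 1 higher in LT-HSCs. In CMPs 19 of 45, in GMPs 32 of 60 and in MEPs 21 of 45 calls held in every such fit. The WT contrast of GMPs with CMPs ran from 59 to 89 (59 without mouse 309, 63 without mouse 300), CMP-high lincRNAs from 16 to 33 and GMP-high from 12 to 17. The interactions ran from 25 to 41 (GMP less CMP), from 14 to 32 (MEP less CMP) and from 33 to 46 (MEP less GMP), each lowest without WT mouse 309 or, for MEP less CMP, also KO mouse 304.

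Without the lincRNAs whose exons overlap another gene, CMPs had 29 calls (11 lower), and MEPs 25 (10 lower, 15 higher). In LT-HSCs DESeq2 called 1 (1 lower), the fit without a filter 3 (3 lower) and the replicate block 3 (3 lower). A share of at least 90% in a WT population was held by 3. A limit of 0.5 TPM gave 458 lincRNAs, a limit of 2 TPM 186, and 1 TPM in each of the 6 groups 167.

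The WT and KO mice share no number. A replicate block that pairs neighboring columns of the authors' table, which is not described as a pairing, gave 57 calls in CMPs, 81 in GMPs, 48 in MEPs and 3 in LT-HSCs, and the deviations of paired columns correlated at -0.03 to 0.38. With the mouse as a block, 122 lincRNAs were higher in 1 WT population than in both others. Of 485 values of named lincRNAs under other settings, 459 stayed on their side of the threshold, 23 lost the call and 3 gained it, and with a library left out 451 of 550 did, 97 lost it and 2 gained it.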
